A study of Mus musculus with 4 samples.

Results

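The contacts of the *Lef1* promoter along chromosome 3 were described by their distance from the viewpoint, in E12.5 whisker pad and in adult kidney. The members were the chromosome 3 restriction fragments that carry a score in the promoter 4C-Seq libraries, 137324 of the 2350945 fragments of the whole table, or 5.84%. Each fragment was placed by the distance of its midpoint from the middle of the excluded viewpoint region, on the centromeric or the telomeric side, in bins of under 50 kb, 50-100 kb, 100-200 kb, 200-350 kb, 350-1000 kb, 1-5 Mb and over 5 Mb. These choices gave 14 bins, 7 on each side. Another 6 chromosome 3 fragments, from 131105767 to 131113120, hold no score because they lie in the excluded region, and were not used.

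The series holds 4 libraries, of which 2 used the *Lef1* promoter as the viewpoint. Both came from OF1 mice with no allele or treatment named in the labels. The whisker pad library was made from whole pads of E12.5 embryos, with 120 pads pooled according to the methods, which also mention E13. The kidney library was made from whole adult kidney, which the study used as its negative control. Each tissue was dissociated to single cells, and each library is a mixture of the cell types of the organ. Embryonic against adult stage and whisker pad against kidney cannot be told apart in this design. There was 1 library per tissue, so no difference between them has a replicate check, no test was run, and the values compare these 2 libraries. 4C-Seq holds no expression, and the tissue labels were not checked against marker genes.

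*Lef1* encodes an HMG-box transcription factor that, together with β-catenin, carries Wnt signals to target genes, and it is needed for whisker follicles to form. In 4C-Seq, crosslinked chromatin is cut and re-ligated, and the fragments joined to a chosen viewpoint are sequenced. Contact frequency generally falls with distance along a chromosome, and it falls faster where a chromatin domain ends. The raw score is a signal per fragment that follows the amount of ligation to the viewpoint. It is not a read count, and the sequencing depth behind it is unknown.

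The mouse reference sequence (GRCm38.p6) is shown for the viewpoint and for some of the highest fragments. Capitals mark the CATG sites of NlaIII, the primary cutter that sets the fragment ends, and the GATC sites of DpnII, the secondary cutter. Both motifs read the same on either strand. The promoter is the RefSeq window of 250 bases upstream of the *Lef1* start, at chr3:131110047-131110296 on the plus strand. It lies inside the excluded region, and it holds 1 CATG and 1 GATC. Among 32851 mouse promoter windows of the same length, 53.9% held CATG and 41.9% held GATC.
Lef1 promoter: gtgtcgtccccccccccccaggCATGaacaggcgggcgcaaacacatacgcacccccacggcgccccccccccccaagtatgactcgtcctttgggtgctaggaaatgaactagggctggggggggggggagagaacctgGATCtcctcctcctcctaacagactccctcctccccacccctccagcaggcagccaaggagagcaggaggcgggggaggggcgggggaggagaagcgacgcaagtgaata
The next 3 sequences are plus-strand stretches of scored fragments, each beginning with its NlaIII site, and none overlaps an exon in RefSeq. The fragment with the highest score in both tissues lies in a *Lef1* intron, directly next to the stretch left without a score. Its first 300 bases are at chr3:131113121-131113420.
Highest fragment, Lef1 intron: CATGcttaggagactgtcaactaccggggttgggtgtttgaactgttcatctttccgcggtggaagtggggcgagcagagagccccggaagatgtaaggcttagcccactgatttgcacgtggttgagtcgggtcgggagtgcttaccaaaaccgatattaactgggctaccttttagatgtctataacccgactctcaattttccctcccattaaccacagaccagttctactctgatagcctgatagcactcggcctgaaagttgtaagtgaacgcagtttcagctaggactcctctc
The fragment with the highest score in both tissues at 200-350 kb on the centromeric side is shown whole, with both NlaIII sites, at chr3:130818235-130818519. It is intergenic, has a GC content of 35.8%, and contains a long run of GA repeats.
Centromeric 200-350 kb fragment: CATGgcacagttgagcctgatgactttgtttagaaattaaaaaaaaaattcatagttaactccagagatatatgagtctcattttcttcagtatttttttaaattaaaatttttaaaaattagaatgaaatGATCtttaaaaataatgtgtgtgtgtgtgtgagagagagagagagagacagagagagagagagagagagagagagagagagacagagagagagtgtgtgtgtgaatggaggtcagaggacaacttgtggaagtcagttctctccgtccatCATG
A fragment at 100-200 kb on the same side, in an intron of the long non-coding RNA *2010110G14Rik*, was among the highest in whisker pad and at 0 in kidney. Its first 300 bases are at chr3:130916572-130916871.
Centromeric 100-200 kb fragment: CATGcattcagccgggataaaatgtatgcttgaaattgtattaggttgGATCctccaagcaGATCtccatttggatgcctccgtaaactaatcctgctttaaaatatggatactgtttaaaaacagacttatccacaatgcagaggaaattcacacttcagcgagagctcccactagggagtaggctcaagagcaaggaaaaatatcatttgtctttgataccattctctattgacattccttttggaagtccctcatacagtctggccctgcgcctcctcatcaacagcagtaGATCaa

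In whisker pad, the *Lef1* promoter library concentrated its chromosome 3 score near the gene, whereas in kidney more of it lay far away. Fragments within 350 kb held 52.2% of the chromosome 3 score in whisker pad against 32.4% in kidney. Fragments beyond 5 Mb held 26.8% in whisker pad against 54.1% in kidney. The distance that encloses 50% of the score, both sides together, was 290 kb in whisker pad and 9056 kb in kidney.

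The whole libraries had similar raw sums, 854206 in whisker pad against 821297 in kidney. Chromosome 3 held 38.01% of that sum in whisker pad against 13.9% in kidney. Of its fragments, 5790 were above 0 in whisker pad against 3101 in kidney. The chromosome 3 shares are therefore fractions of unlike totals, 324667 and 113934. When divided by the score of all chromosomes, the share within 350 kb was 19.8% in whisker pad against 4.49% in kidney, and the share beyond 5 Mb was 10.2% and 7.50%. The direction of the comparison within 350 kb was the same with both denominators, and beyond 5 Mb it was opposite.

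Almost every fragment close to the promoter was detected in whisker pad, and the kidney library lost fragments much closer in. On the centromeric side, the share of fragments above 0 in whisker pad was 97.5% under 50 kb, 98.4% at 50-100 kb, 97.4% at 100-200 kb and 96.0% at 200-350 kb. In kidney it was 90.0%, 72.1%, 55.3% and 48.7% in the same bins. The whisker pad library thus held its detection level over 350 kb on this side, while that of kidney became lower with each bin. The 95% Wilson intervals at 200-350 kb were 91.5% to 98.1% in whisker pad and 40.8% to 56.6% in kidney. These intervals cover the counting of fragments only, since neighbouring fragments of 1 library are not independent.

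Farther out on the centromeric side, detection was 50% in whisker pad against 17.0% in kidney at 350-1000 kb, 17.7% and 5.36% at 1-5 Mb, and 2.40% and 1.66% beyond 5 Mb. The ratio between the tissues was 1.08 under 50 kb, reached 3.30 at 1-5 Mb and was 1.45 beyond 5 Mb. It was thus lowest next to the promoter, where kidney detection of 90.0% leaves it little room to be higher. Detected fragments under 50 kb still had a 3.11-fold higher mean raw score in whisker pad.

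The telomeric side holds the *Lef1* gene itself. Detection there was 100% in whisker pad both under 50 kb and at 50-100 kb, against 98.4% and 83.6% in kidney. At 100-200 kb the shares were 91.7% in whisker pad against 47.2% in kidney, and at 200-350 kb they were 66.2% and 16.9%. Detection in whisker pad was therefore lower on the telomeric than on the centromeric side at 200-350 kb. The telomeric 200-350 kb bin holds 71 fragments against 150 on the other side, and 56.9% of its reference bases are unknown, compared with 0% of the centromeric bin. Detection was 34.2% in whisker pad against 11.1% in kidney at 350-1000 kb, 10.4% and 3.67% at 1-5 Mb, and 4.31% and 1.88% beyond 5 Mb.

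**Figure D1:**
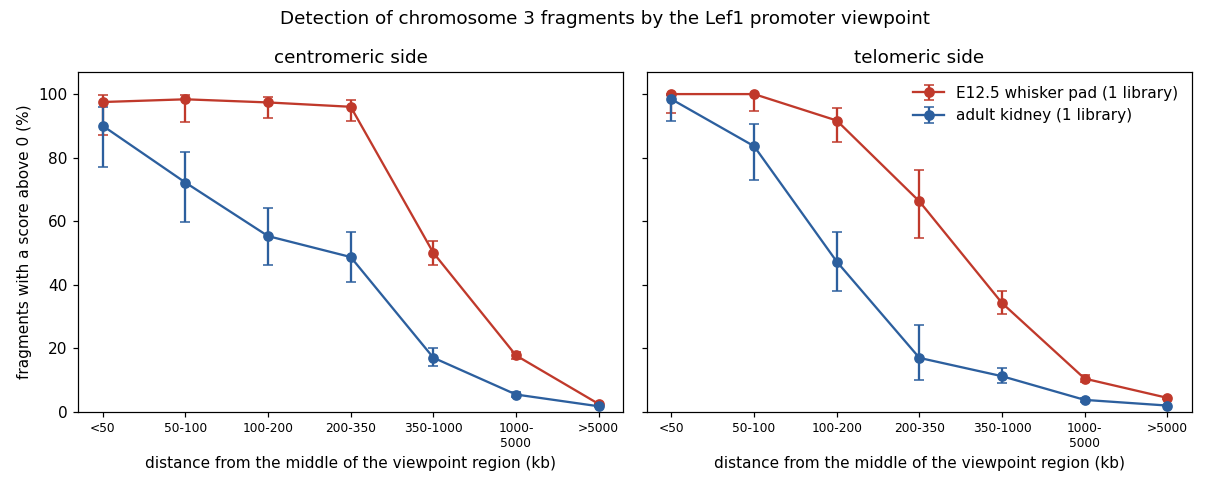
Share of fragments with a score above 0 (%) against distance (kb), with the centromeric side on the left and the telomeric side on the right; bars are 95% Wilson intervals over fragments of 1 library per tissue. Whisker pad stays at 96.0% or more up to 350 kb on the centromeric side, where kidney goes from 90.0% to 48.7%.

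In the 4 centromeric bins within 350 kb, 216 fragments were above 0 in both tissues, 138 in whisker pad alone, and 0 in kidney alone, where only 11 fragments at 0 in whisker pad could have been. On the telomeric side the same counts were 174, 101 and 6, with 33 at 0 in whisker pad. Beyond 5 Mb, both sides together, 3410 fragments were above 0 in whisker pad alone and 2068 in kidney alone. On the centromeric side beyond 5 Mb, where 104171 fragments lie, only 62 were above 0 in both. With so few fragments detected, few can be shared. Kidney detection in this bin was 2.48% among fragments above 0 in whisker pad and 1.64% among those at 0.

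Mean scores showed a plateau on the centromeric side in whisker pad. The mean raw score in whisker pad was 499.6 under 50 kb, 213 at 50-100 kb, 192 at 100-200 kb and 179.8 at 200-350 kb. In kidney the means were 148, 40.9, 26.3 and 21.5. From 50-100 kb to 200-350 kb, each bin was 1.11- and 1.07-fold lower than the one before it in whisker pad, and 1.55- and 1.23-fold lower in kidney. Beyond this stretch the mean at 350-1000 kb was 34.97 in whisker pad against 5.37 in kidney, which is 5.14-fold and 4.00-fold lower than in the bin before. It was 6.05 and 1.57 at 1-5 Mb, and 0.588 and 0.474 beyond 5 Mb.

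On a finer scale, high scores in whisker pad extended to 400 kb on the centromeric side, but they were not level. At 350-400 kb, 98.3% of 58 fragments were above 0 and the mean raw score was 213, with 43.1% and 21.9 in kidney. Within this stretch, whisker pad means in windows of 11 fragments ran from 94.4 to 379. The farthest windows of the stretch were the highest, at 379 and 308. Kidney means were 24.0 at 150-200 kb and 19.5 at 200-250 kb, so that kidney was also nearly level from 150 kb to 400 kb, at lower scores. At 400-450 kb the means were 46.2 in whisker pad against 7.39 in kidney, and at 450-500 kb 17.4 and 7.71. The step between 350-400 kb and 400-450 kb was thus present in both libraries. The genes on either side of this distance are *Rpl34*, which encodes a ribosomal protein and lies 380 kb from the viewpoint centre, and *Ostc*, a subunit of the oligosaccharyltransferase, 406 kb away.

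The telomeric side had no such plateau. The mean raw score in whisker pad was 860.5 under 50 kb, 243 at 50-100 kb, 142 at 100-200 kb and 35.2 at 200-350 kb, and in kidney it was 267, 41.8, 23.7 and 4.85. The bin at 200-350 kb was 4.03-fold lower than the one before it in whisker pad and 4.88-fold lower in kidney. The decline began inside the 100-200 kb bin, where whisker pad had a mean of 201 at 100-150 kb and 76.0 at 150-200 kb, with 30.8 and 15.6 in kidney. Means beyond were 15.3 and 3.37 at 350-1000 kb, 2.78 and 0.885 at 1-5 Mb, and 1.09 and 0.520 beyond 5 Mb.

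**Figure D2:**
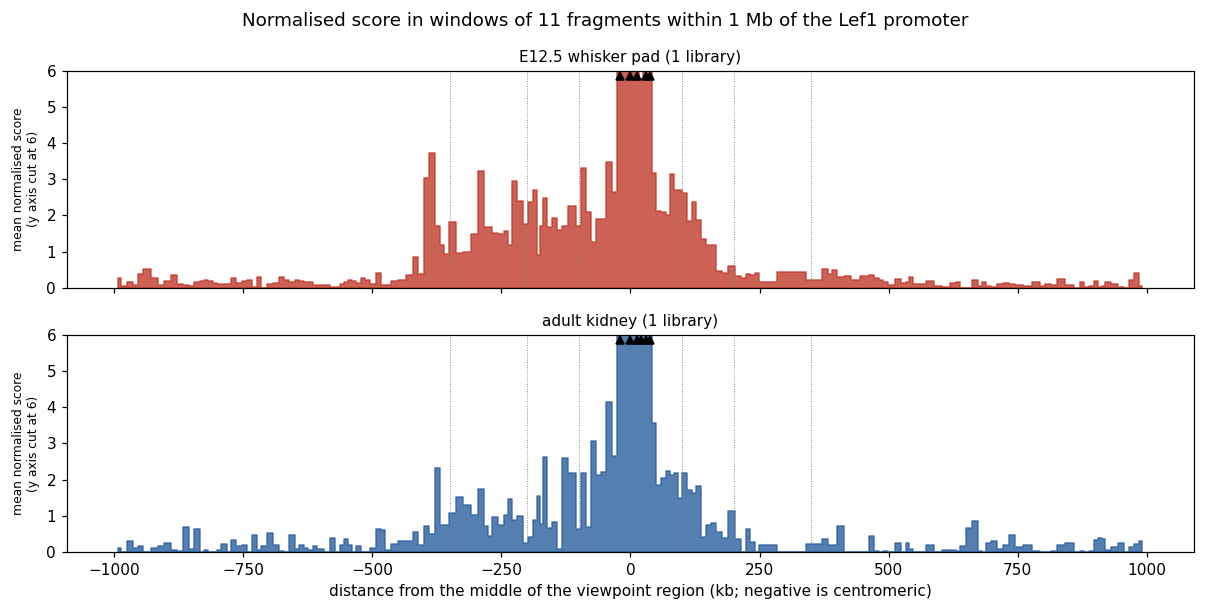
Mean normalised score (raw score divided by the library's mean within 1 Mb, no unit) in consecutive windows of 11 fragments against distance (kb, negative is centromeric), whisker pad above and kidney below; dotted lines mark the bin edges from 100 to 350 kb and triangles mark windows above 6. In whisker pad the signal stays high to about 400 kb on the centromeric side, and on the telomeric side it is low beyond 200 kb in both tissues.

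The 2 sides contributed unequally, and in the same order in both tissues. Under 50 kb the centromeric side held 27.3% of the score of its ring in whisker pad against 26.4% in kidney, and at 50-100 kb 44.3% and 47.1%. At 100-200 kb it held 58.9% and 54.0%, and at 200-350 kb 91.5% and 90.3%. Of the fragments, the centromeric side held 39.2%, 47.7%, 51.4% and 67.9% in these rings. The telomeric side was thus the higher one under 50 kb, where it is the gene body of *Lef1*, and the centromeric side from 100 kb on. At 50-100 kb the centromeric mean per fragment was 0.875-fold the telomeric one in whisker pad and 0.979-fold in kidney, where the sides were nearly level. Per fragment, the centromeric mean at 200-350 kb was 5.10-fold the telomeric one in whisker pad and 4.43-fold in kidney. The centromeric share was 71.4% and 63.5% at 350-1000 kb, and 70.9% and 66.6% at 1-5 Mb.

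Beyond 5 Mb the centromeric side held 70.5% of the score in whisker pad against 80.2% in kidney, but it also held 81.6% of the fragments, as the telomeric arm ends 28.8 Mb away. In the range of 5-28 Mb, which both sides reach, its share was 46.7% in whisker pad against 50.2% in kidney, with 47.1% of the fragments. Within this range the sides were not equal throughout, as at 5-10 Mb the mean raw score in kidney was 0.876 on the centromeric and 0.420 on the telomeric side, with 1.53 and 1.48 in whisker pad.

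From 50-100 kb to 1-5 Mb, the slope of log10 mean score on log10 distance was -0.97 in whisker pad and -0.89 in kidney on the centromeric side. On the telomeric side it was -1.23 and -1.06. Over this whole span the decline was somewhat steeper in whisker pad on both sides. There is no replicate spread to set these differences against. Over fragments above 0 alone, the slopes were -0.50 and -0.18 on the centromeric side, and -0.60 and -0.20 on the telomeric side. Between neighbouring bins of all fragments, kidney had the steeper slope in each step up to 200-350 kb, on both sides. From 50-100 kb to 100-200 kb on the centromeric side it was -0.58, against -0.13 in whisker pad. In each step beyond, whisker pad was steeper, as with -1.79 against -1.51 from 200-350 kb to 350-1000 kb on that side.

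The score of a detected fragment became level with distance, and at about the same value in both tissues. Under 50 kb on the centromeric side, fragments above 0 had a mean raw score of 512 in whisker pad against 165 in kidney. At 200-350 kb they had 187 and 44.1, and at 350-1000 kb 69.9 and 31.7. The means were 34.2 and 29.4 at 1-5 Mb, and 24.6 and 28.6 beyond 5 Mb. Whisker pad exceeded kidney 1.17-fold in this measure at 1-5 Mb and 3.30-fold in the share of fragments detected, so that the gap between the tissues lay mainly in detection there. The telomeric side was alike, with 860.5 and 272 under 50 kb, and 25.3 and 27.6 beyond 5 Mb.

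**Figure D3:**
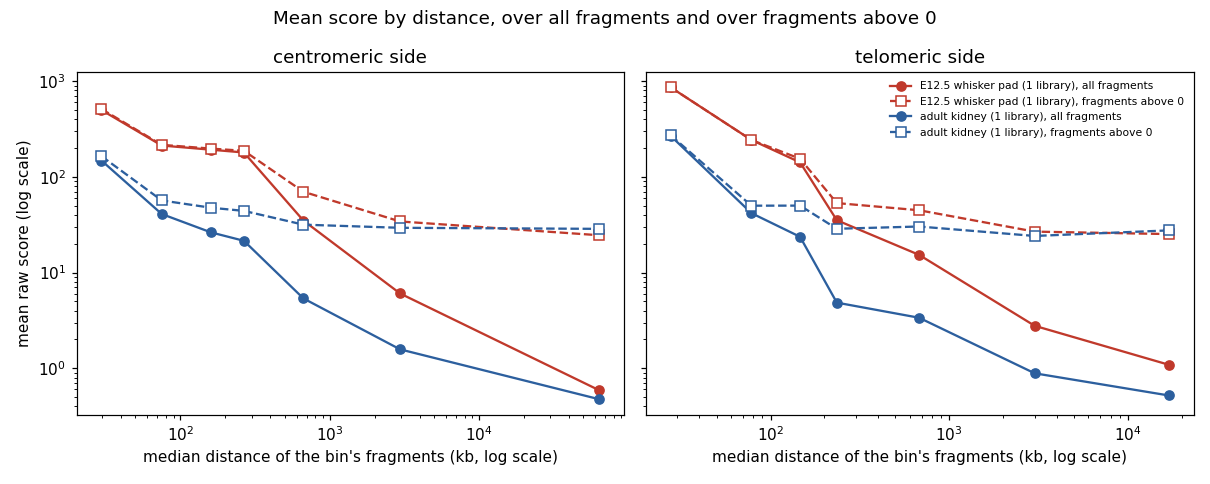
Mean raw score (log scale) against the median distance of each bin (kb, log scale); filled circles are means over all fragments and open squares means over fragments above 0, with 1 library per tissue. The means over fragments above 0 level off between 24.6 and 28.6 beyond 5 Mb in both tissues, while those over all fragments go on declining.

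The share of the chromosome 3 score in a bin does not depend on how a library is scaled. On the centromeric side, whisker pad and kidney held 6.16% and 5.20% under 50 kb, 4.00% and 2.19% at 50-100 kb, 6.76% and 2.63% at 100-200 kb, and 8.31% and 2.83% at 200-350 kb. By this share of unlike chromosome 3 totals, the tissues were thus close next to the promoter, although the raw means there differed 3.37-fold. Among the bins of this side with a higher share in whisker pad, they differed most at 200-350 kb, where the log2 ratio was 1.56. At 350-1000 kb the shares were 7.50% and 3.28%, at 1-5 Mb 7.50% and 5.57%, and beyond 5 Mb 18.9% and 43.3%. The log2 ratio was 1.19, 0.43 and -1.20 in these bins.

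On the telomeric side, the shares were 16.4% in whisker pad against 14.5% in kidney under 50 kb, 5.02% and 2.46% at 50-100 kb, 4.72% and 2.24% at 100-200 kb, and 0.771% and 0.302% at 200-350 kb. The log2 ratios were 0.18, 1.03, 1.07 and 1.35. The pattern was like that of the other side, with little difference in this share next to the promoter and a higher share in whisker pad at 50-350 kb. At 350-1000 kb the shares were 3.01% and 1.89%, at 1-5 Mb 3.08% and 2.80%, and beyond 5 Mb 7.89% and 10.7%.

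**Figure D4:**
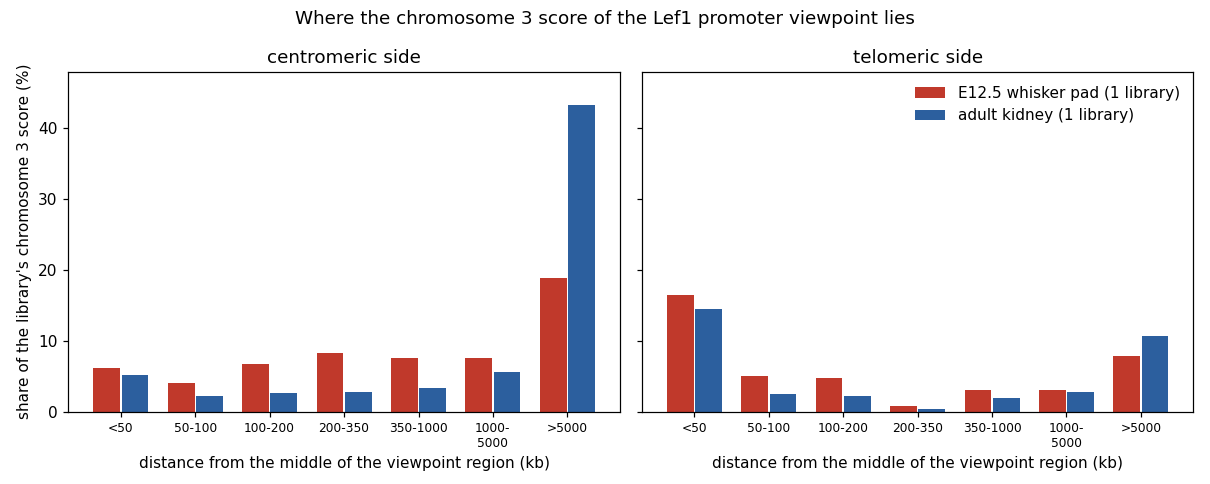
Share of the library's chromosome 3 score (%) in each distance bin (kb) and side, with 1 bar per library and tissue. Whisker pad is above kidney in each bin up to 5 Mb, and beyond 5 Mb on the centromeric side kidney holds 43.3% and whisker pad 18.9%.

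Raw means were higher in whisker pad in each of the 14 bins. The ratio of whisker pad to kidney on the centromeric side was 3.37 under 50 kb, 5.20 at 50-100 kb, 7.31 at 100-200 kb, 8.38 at 200-350 kb, 6.51 at 350-1000 kb, 3.84 at 1-5 Mb and 1.24 beyond 5 Mb. The telomeric ratios were 3.22, 5.82, 5.999, 7.27, 4.54, 3.14 and 2.10. Among these bins, both sides thus had their highest ratio at 200-350 kb. This depended on the bin edges. Finer stretches reached 10.3 at 200-250 kb and 9.75 at 350-400 kb on the centromeric side. On the telomeric side the ratio was 8.38 at 350-500 kb, where 16 fragments were above 0 in kidney.

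After normalisation, in which each raw score was divided by the library's mean within 1 Mb, the direction depended on the bin. That mean was 101.4 in whisker pad against 21.3 in kidney, so the scaling lowers the whisker pad to kidney ratio by 4.75-fold. Under 50 kb the normalised mean was 4.93 in whisker pad against 6.95 in kidney on the centromeric side, and 8.49 and 12.53 on the telomeric side. At 200-350 kb on the centromeric side it was 1.77 and 1.01. Beyond 5 Mb it was 0.00580 and 0.0222 on the centromeric side, a ratio of 0.261, and 0.0107 and 0.0244 on the telomeric side, a ratio of 0.441. With this scaling, kidney was thus the higher library at both ends, and the lower one from 50 to 350 kb on both sides. Under 50 kb the direction turned with another scaling, as the log2 difference was 0.24 on the centromeric and 0.18 on the telomeric side when divided by the chromosome 3 mean, and 0.58 and 0.52 when divided by the median of fragments above 0 within 1 Mb. Over fragments above 0 alone, the centromeric differences from 50 to 350 kb turned to -0.32, -0.19 and -0.16, and that at 350-1000 kb to -1.09. The telomeric ones turned to -0.62 at 100-200 kb and -1.34 at 200-350 kb, and kept their sign at 50-100 kb. On the log2 scale with a pseudocount of 0.01, the centromeric differences were -0.49, 0.13, 0.62, 0.81, 0.44, -0.27 and -1.03 from the nearest to the farthest bin, and the telomeric ones -0.56, 0.29, 0.33, 0.59, -0.06, -0.46 and -0.73.

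Single fragments were counted when their normalised scores differed at least 2-fold. Over all chromosome 3 fragments, 3.81% were higher in whisker pad by this rule and 1.96% in kidney. Within 350 kb, 338 of 673 fragments, or 50.2%, were higher in whisker pad and 107, or 15.9%, in kidney. Both shares were above those of the whole chromosome, where most fragments were at 0 in both libraries. The whisker pad count was 99 when a score above 0 in both tissues was required, and the kidney count 101, so the excess of whisker pad came from fragments listed at 0 in kidney. With raw scores the counts were 552 and 18.

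By bin, the whisker pad share was 22.5% under 50 kb, 54.1% at 50-100 kb, 57.9% at 100-200 kb and 59.3% at 200-350 kb on the centromeric side. The kidney share was 25%, 21.3%, 12.3% and 12.0%. On the telomeric side the whisker pad share was 16.1%, 46.3%, 56.5% and 54.9%, and the kidney share 22.6%, 16.4%, 15.7% and 14.1%. Fragments under 50 kb were thus divided more evenly between the tissues, and from 50 to 350 kb more of them were higher in whisker pad. Beyond 5 Mb on the centromeric side the shares were 2.34% and 1.64%.

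The score was more concentrated in kidney. Within 350 kb, the top 1% of fragments held 11.9% of the score in whisker pad against 24.1% in kidney. At 1-5 Mb on the centromeric side, the top 1% held 24.6% and 55.5%, and beyond 5 Mb 84.2% and 93.3%. At 200-350 kb on that side, 20% of the fragments were needed to reach 50% of the score in whisker pad against 9.33% in kidney. The lower detection of kidney moves with this measure, and its part in the difference was not tested.

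The highest fragment of either library, from 131113125 to 131113686, lies 4.64 kb telomeric of the viewpoint centre. Its raw score was 6600 in whisker pad against 3206 in kidney, which is 12.4% and 19.4% of the score of its bin. It is the first scored fragment past the empty stretch around the viewpoint, which ends at 131113120. The part of this nearness in its score was not tested. On the centromeric side, the highest fragment in whisker pad under 50 kb, from 131095638 to 131096784, had 1858 and 727, and the highest in kidney, from 131102458 to 131103815, had 1396 and 842. Of the 5 highest fragments of each library under 50 kb, 4 were shared on the telomeric side and 2 on the centromeric side.

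At 200-350 kb on the centromeric side, the fragment with the GA repeats printed above was the highest in both tissues, with 1059 in whisker pad against 249.9 in kidney. At 100-200 kb, the fragment from 130999472 to 131000859 had 642 and 302, the highest of the bin in kidney. The highest of that bin in whisker pad, from 130944817 to 130945430, had 768 and 81.0. The printed *2010110G14Rik* fragment, from 130916576 to 130917110, ranked 2 there with 683 in whisker pad and was listed at 0 in kidney. Beyond 5 Mb, 0 of the 5 highest fragments were shared on either side, and each of these was at 0 in the other tissue. As 1.66% to 4.31% of fragments were detected there in either library, most fragments of any height were at 0 in the other one.

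Of the loci that the study names, the fragments around Leaf, 91.2 kb centromeric, had a mean raw score of 281 in whisker pad against 30.2 in kidney, with 25 and 20 of 25 above 0. Around the TRACER insertion, 181 kb centromeric, the means were 183 and 26.0, with 22 and 10 of 22 above 0. For comparison, the means of their bins were 213 and 40.9 at 50-100 kb, and 192 and 26.3 at 100-200 kb, in whisker pad and kidney. Normalised means in whisker pad and kidney were 2.77 and 1.42 around Leaf, and 1.80 and 1.22 around the TRACER insertion.

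Of 42 genes in a list of neighbours and of developmental and signalling genes of the chromosome, 41 were found on chromosome 3 and covered by fragments. The mean raw score was higher in whisker pad for 33 of them and in kidney for 7, and 1, *Sox2*, a transcription factor of stem and progenitor cells, was at 0 in both tissues over its 4 fragments. Within 5 Mb, 28 of 32 genes were higher in whisker pad, and beyond 5 Mb 5 of 9. After normalisation 20 genes were higher in each tissue, so the direction for genes depended on the scaling as it did for bins.

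Among the near genes, *Lef1* had 143 fragments, all of them above 0 in whisker pad against 126 in kidney, with mean raw scores of 514 and 140.2. After normalisation its mean was 5.07 in whisker pad against 6.57 in kidney, so its direction turned with the scaling. The long non-coding RNA *2010110G14Rik* had 117 and 56 of 121 fragments above 0, with means of 186 and 18.5. *Rpl34* had means of 504.9 and 11.2 over 4 fragments, which is 45.1-fold higher in whisker pad and the highest level among listed genes beyond 350 kb in that tissue. In kidney, *Rpl34* had 1 fragment above 0, at 44.8. Its normalised means were 4.98 in whisker pad against 0.525 in kidney. *Ostc* had means of 42.5 and 4.44 over 15 fragments, and *Col25a1*, which encodes a collagen of neurons, 16.7 and 3.38 over 516.

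On the telomeric side, *Hadh*, an enzyme of fatty acid oxidation, had mean raw scores of 138 in whisker pad against 21.2 in kidney. *Cyp2u1*, a cytochrome P450, had 66.1 and 24.2, *Sgms2*, a sphingomyelin synthase, had 35.2 and 4.33, and *Papss1*, which makes the sulphate donor of the cell, had 21.4 and 2.03. Their order by level in whisker pad was that of their distance. After normalisation *Cyp2u1* was higher in kidney, with 0.652 in whisker pad against 1.13. *Hadh*, *Sgms2* and *Papss1* stayed higher in whisker pad. *Dkk2*, which encodes a secreted modulator of Wnt signalling and lies 1.02 Mb away, had 8.49 and 1.25, and the fragment over its start, from 132084943 to 132086199, was the highest at 350-1000 kb in whisker pad, with 274 against 0 in kidney.

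Beyond 1 Mb, consecutive windows of 11 fragments were searched for clusters of detected fragments, and 5 windows at genes are named here after their values had been seen. Around *Neurog2*, a neurogenic basic helix-loop-helix factor 3.48 Mb centromeric, the window from 127621922 to 127633466 had 8 of 11 fragments above 0 in whisker pad against 4 in kidney, with mean raw scores of 26.3 and 3.54. Around *Cxxc4*, which encodes an inhibitor of Wnt signalling 3.13 Mb telomeric, the window from 134229508 to 134242186 had 8 and 0, with means of 31.8 and 0. In *Sec24b*, a COPII coat protein 1.05 Mb centromeric, the window from 130053950 to 130058327 had 8 and 1, with 54.8 and 1.62. The bin means in whisker pad were 6.05 on the centromeric and 2.78 on the telomeric side. Of 366 centromeric windows at 1-5 Mb, 35 reached 5 detected fragments in the whisker pad library, and 3 did so for kidney. Of 327 telomeric windows at this distance, 4 and 0 did. The other named windows had a higher mean raw score in kidney. The window from 129827955 to 129837152, over *Gar1*, a protein of small nucleolar ribonucleoproteins, and *Cfi*, complement factor I, had 6 whisker pad and 3 kidney fragments above 0 of 11, with mean raw scores of 18.3 against 22.0 in kidney. The kidney mean of this window rested mainly on 1 fragment, from 129829799 to 129830133, with a raw score of 208 against 0 in whisker pad. A second window in *Cfi*, from 129854616 to 129866527, had 3 fragments above 0 in each library, with mean raw scores of 7.85 against 14.1 in kidney.

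Beyond 5 Mb the score was spread thinly. In whisker pad detection was 6.28% at 5-10 Mb, 3.27% at 10-20 Mb, 3.80% at 20-28 Mb, 2.38% at 28-80 Mb and 1.46% beyond 80 Mb on the centromeric side. In kidney it was 2.58%, 1.75%, 1.69%, 1.78% and 1.36%. Detection in whisker pad was thus lower at the far end than at 5-10 Mb, and the tissues were closest beyond 80 Mb. The highest fragments of the centromeric bin, in an intron of *Dpyd* for whisker pad, at 200.1, and between genes for kidney, at 223, were each at 0 in the other library.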

How the data were processed

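4C-Seq was made from OF1 whisker pads at E12.5 and adult kidney, with NlaIII and DpnII as cutters. The authors aligned the reads with Bowtie2 to mm10 (GRCm38), computed a score per restriction fragment with HTSstation, left the viewpoint region empty, and deposited a raw and a smoothed score. Per the file headers and values, both are a signal, not whole reads, so that depth is unknown and no floor can be given. Per-sample columns left unused numbered 0. Raw scores were used as deposited, or divided by the mean within 1 Mb, as in the study's methods. Fragments were binned by distance, and detection, score share, mean, sides, decay, 2-fold counts and concentration were computed per bin. There was 1 library per tissue, so no test was run. Named fragments were the highest of each bin and library, and named genes came from the list of 42. The bins, lists and named members were chosen with earlier results of these data known. Genes are those of GENCODE M21, promoters and exons those of RefSeq, and all 137324 scored fragments had CATG at both ends in GRCm38.p6. Results for 1 locus of the list are not reported here. The binning was tested on simulated data. Alternatives changed the scaling, fragments, origin, edges, detection threshold, smoothing, denominator, fold and pseudocount. The work used Python 3.11.15, numpy 2.4.6, pandas 2.3.3, matplotlib 3.10.9 and samtools 1.23.1.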

Additional observations from a re-analysis of the deposited data

How the results depend on the processing

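No paired analysis was possible because each tissue has 1 library. A value was counted as moved when it changed over 1.5-fold, or when a detection share left its 95% Wilson interval. Of 140 values for the stretches within 350 kb and over 5 Mb, the slopes and the sides, 97 stayed within these limits. Of 954 values for single bins, 716 stayed. The sign changed in 6 of 44 log2 ratios and slopes for the stretches and in 26 of 280 for single bins, of which 4 and 17 were changes of scaling. In 1 and 2 of these the main difference was at least 2-fold. The cause was not tested, except where the alternative's construction shows it. Leaving out the highest fragment of each library in each bin, measuring from the nearest fragment end, the annotated *Lef1* start as origin and smoothed scores moved none of the stretch values.

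With the score of all chromosomes as denominator, the share within 350 kb was 19.8% in whisker pad against 4.49% in kidney (log2 ratio 2.14), and over 5 Mb 10.2% and 7.50%, so that the log2 ratio there was 0.44 and no longer -1.01; on the centromeric side it was 0.25. The log2 ratio of means was -0.05 within 350 kb and -0.96 over 5 Mb. It was 2.20 and 0.49 with raw scores, where the centromeric side over 5 Mb reached 0.31, 1.02 and -0.35 when scaled by the median of fragments above 0, and -0.72 and -2.40 over fragments above 0 alone. Within 350 kb it was 0.69 when scaled by the chromosome mean, and over 5 Mb -1.75 with no pseudocount, an alternative chosen after seeing the data, and -1.63 over fragments above 0 in any of the 4 libraries.

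Within 350 kb, fragments at least 2-fold higher numbered 338 in whisker pad against 107 in kidney. They numbered 552 and 18 with raw scores, 99 in whisker pad among fragments above 0 in both tissues, and in kidney 46, 35 and 39 with the chromosome mean, the median of fragments above 0 and a fold of 4. Over 5 Mb, 8 and 74 were left among fragments above 0 in both tissues.

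Detection at a raw score of at least 5 was 90.5% and 54.5% within 350 kb, and 1.99% and 1.35% over 5 Mb. At a score of at least 1, chosen after seeing the data, it was 2.30% and 1.504% over 5 Mb. Among fragments above 0 in any library it was 97.7% in whisker pad within 350 kb, and 46.3% and 28.6% over 5 Mb. With fragments of 100 to 2000 bases it was 2.89% and 1.80% over 5 Mb. With every edge 1.5 times as far it was 83.8% and 46.2% in the near stretch, and 2.64% in whisker pad in the far one. Whisker pad was the higher tissue in each of these pairs. Over fragments above 0 the slopes were -0.50 and -0.18 on the centromeric side, and -0.60 and -0.20 on the telomeric side. Medians gave no slope, as the median fragment at 1-5 Mb was at 0. The top 5% of fragments within 350 kb held 29.0% in whisker pad against 47.6% in kidney.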

Other observations

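Detection beyond 5 Mb moved with fragment length in both libraries. Of fragments under 100 bases, 1.09% were above 0 in whisker pad against 0.571% in kidney, and of those from 800 to 1600 bases 4.58% and 3.19%. Detected fragments of the short class had a mean raw score of 38.8 and 40.4, and of the long class 18.1 and 21.0. With GC content the libraries differed, as detection was 2.09% under 35% GC and 4.33% from 50% GC on in whisker pad, against 1.66% and 1.77% in kidney. The part of length and GC in the values by distance was not tested.

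Low scores made up a sizeable part of those detected. Scores under 1 were 13.0% of those above 0 in whisker pad against 10.2% in kidney, and the lowest score, 0.01, was held by 359 and 105 fragments.

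In the centromeric bin at 350-1000 kb, fragments in protein-coding genes had lower scores than those outside. Detection was 44.9% inside and 70.8% outside genes in whisker pad, and 13.6% and 30.7% in kidney. Of its 559 fragments in genes, most lie in *Col25a1*, which has 516 fragments and is centred 743 kb from the viewpoint. The classes inside and outside genes were not matched for distance. Centromeric detection was 98.3% in whisker pad against 43.1% in kidney at 350-400 kb, and 42.6% and 12.0% at 500-750 kb. The part of distance in this comparison was not tested. At 1-5 Mb on the same side the order was opposite, with 19.6% inside and 16.0% outside in whisker pad, and 5.68% and 5.09% in kidney.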
